A study of Mus musculus with 2 samples.

Results

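Cholesterol synthesis, uptake and efflux genes were compared between Lamtor1-deficient (KO) and wild-type (WT) mouse CD4+ T cells. The set holds 30 genes, taken by gene name or synonym from the probes of the array, with the brightest probe standing for each gene. They carried 42 of the 39429 probes, and all 30 were among the 14874 measured genes of 31709 gene names. Measured means that the probe stood well above background on each array in KO, in WT or in both.

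The KO RNA came from Lamtor1-deficient and the WT RNA from wild-type CD4+ T cells of C57BL/6J mice. Lamtor1 belongs to Ragulator, a lysosomal scaffold for the growth-regulating kinase complex mTORC1. The allele, any Cre driver, the age of the mice and the number of animals pooled are not given in the sources used here. Per the labels, both cultures began with CD4+CD62L+ splenic cells sorted by magnet, and received plate-bound antibody to CD3, antibody to CD28, IL-2 at 50 ng/ml and human TGFβ at 1 ng/ml for 5 days, though the extraction text speaks of naive cells. There was 1 RNA extract per genotype, hybridised on 2 arrays with the dyes exchanged. The arrays are 1 replicate, so no test was possible, and each ± below is the technical SD of the 2 arrays.

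Cholesterol is built from acetyl-CoA by way of mevalonate, isoprenoid diphosphates, squalene and lanosterol. When sterol in the endoplasmic reticulum is scarce, the escort protein SCAP carries the membrane-bound transcription factor SREBP2 (gene Srebf2) to the Golgi, where it is cut and freed to switch on nearly every enzyme gene of the route. INSIG proteins hold SCAP back when sterol is plentiful. The nuclear receptors LXRα and LXRβ are switched on by oxysterols and drive efflux genes such as Abca1 and Abcg1, so the SREBP2 and LXR programmes often run in opposite directions. Dividing T cells need sterol for new membrane.

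Lamtor1 itself read 8.08 and 8.14 in the KO RNA, against 10.04 and 10.07 in the WT RNA, with the array that had KO in Cy5 given first here and throughout. These levels are log2 normalised intensities that include an added offset of 50, and single genes are compared only between the RNAs for 1 probe. The log2 ratio of KO over WT was −1.95 ± 0.03, and the probe stayed well above background in KO. The sources used here do not say whether the probe lies in the deleted part. All 11 T cell markers were measured, with a median log2 ratio of −0.49. Both arrays gave a ratio below 0 for 6 of them and above 0 for 3. Cd3e lay at 0.09, Cd3g at −0.49, Cd3d at −0.79 and Cd4 at −1.18. On both arrays 3 of them (Cd4, Cd5 and Trat1) were at least 2-fold lower in KO, where 6.88% of all measured genes were.

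In the KO extract 10 of the 19 enzymes of cholesterol synthesis, the gene of SREBP2 and the sterol carrier gene Stard4 were at least 2-fold lower, while no LXR receptor or target was called. Averaged over the arrays, Abca1 was at least 1.44-fold higher in KO, a bound that leaves its size unknown. Its WT signal was not above background, and its log2 ratios differed between arrays (0.82 and 0.33). A gene was called lower when each array put it 2-fold or more below WT, and higher when each put it 2-fold or more above. Of the 30 genes, 12 were called lower and 0 higher, where 6.88% of all measured genes were called lower and 2.46% higher. The median log2 ratio of the 30 was −0.91, against −0.02 over all measured genes. Both arrays gave a ratio below 0 for 22 of the 30 genes (44.3% of all measured genes), and above 0 for 6. In these bulk RNAs, fewer cells of a type and less RNA per cell cannot be told apart.

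**Figure D1:**
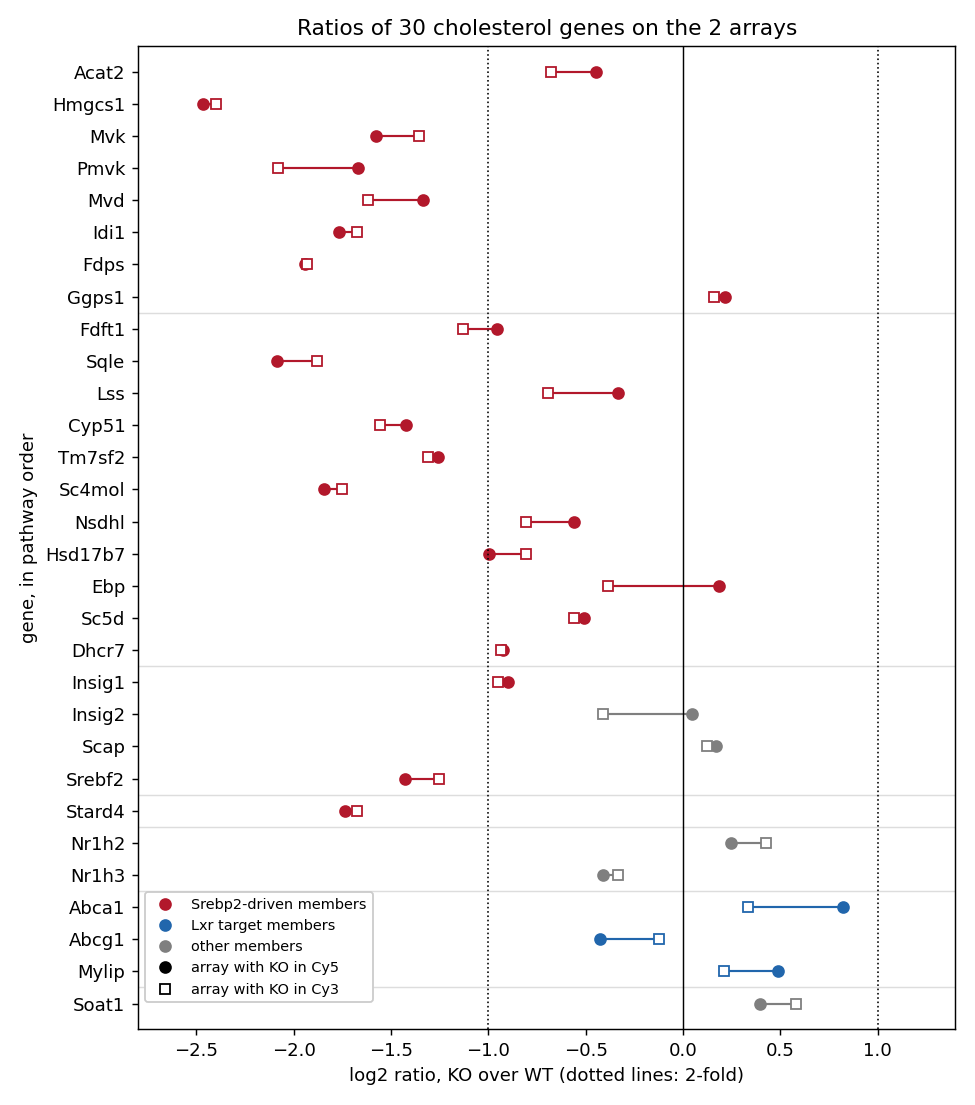
Log2 ratio of KO over WT for each of the 30 genes, in pathway order from the top, with a filled circle for the array with KO in Cy5 and an open square for the array with KO in Cy3. Dotted lines mark 2-fold. The 12 called genes have both points left of −1, while the Lxr targets Abcg1 and Mylip lie between −0.43 and 0.49. The points of Abca1 rest on a WT signal not above background.

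The promoters of called genes are shown first, since transcription factors such as SREBP2 act there. Windows from 250 bases before to 50 bases after a start site, taken from RefSeq (GRCm38.p6), matched 25 of the 30 genes by symbol. Fdps, Fdft1, Sqle, Stard4 and Abcg1 were not matched. The windows below belong to the 3 called synthesis genes with the largest drop among those with a match. Capitals mark, on either strand, the sterol regulatory element TCACNCCAC, the CCAAT box (CCAAT or ATTGG) and the GC box (GGGCGG or CCGCCC). Hmgcs1 lies at chr13:119690101-119690400 (plus strand), Pmvk at chr3:89454291-89454590 (plus strand) and Sc4mol at chr8:64733529-64733828 (minus strand).
Hmgcs1: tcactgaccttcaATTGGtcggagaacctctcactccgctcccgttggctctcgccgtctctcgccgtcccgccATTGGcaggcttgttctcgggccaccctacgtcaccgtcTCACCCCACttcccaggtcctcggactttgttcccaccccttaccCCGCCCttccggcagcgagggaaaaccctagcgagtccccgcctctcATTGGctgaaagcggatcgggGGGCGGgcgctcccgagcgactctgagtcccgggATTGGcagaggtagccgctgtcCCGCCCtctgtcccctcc
Pmvk: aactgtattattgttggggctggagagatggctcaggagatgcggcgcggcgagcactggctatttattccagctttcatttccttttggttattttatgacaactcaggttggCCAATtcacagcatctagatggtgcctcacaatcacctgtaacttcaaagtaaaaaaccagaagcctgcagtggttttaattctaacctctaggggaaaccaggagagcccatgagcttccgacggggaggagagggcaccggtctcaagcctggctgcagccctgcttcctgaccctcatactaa
Sc4mol: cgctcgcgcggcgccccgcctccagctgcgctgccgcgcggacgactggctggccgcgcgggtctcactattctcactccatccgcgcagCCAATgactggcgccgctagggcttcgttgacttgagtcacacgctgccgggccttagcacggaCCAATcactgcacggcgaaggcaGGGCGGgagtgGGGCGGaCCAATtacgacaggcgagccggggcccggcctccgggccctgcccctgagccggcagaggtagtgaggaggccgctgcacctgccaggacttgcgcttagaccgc

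Hmgcs1 had a TCACCCCAC run starting 137 bases before its start, with 4 CCAAT boxes and 3 GC boxes around it. It was the one gene of the 25 with a match to TCACNCCAC, in 1 of their 32 windows, where 1.24% of 32851 windows hold one. Pmvk had 1 CCAAT box and 0 GC boxes, and Sc4mol had 3 CCAAT boxes and 2 GC boxes. All motifs were searched on both strands, and no matches overlapped in these 3 windows. A match is a description of letters, and its absence says nothing about binding.

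CCAAT boxes were common in the 22 genes grouped from textbook knowledge as Srebp2-driven, which are the synthesis enzymes with Insig1, Srebf2 and Stard4. Of the 18 with a window, 17 (94.4%) had a CCAAT box in at least 1 window, against 3 of the 7 other genes matched (42.9%) and 41.1% of the 27025 genes in the table. A CCAAT box and a GC box in the same window occurred in 15 of the 18 (83.3%), in 2 of the 7 others (28.6%) and in 14.5% of all genes. The box did not separate called from uncalled genes, being present in 9 of 9 called and 8 of 9 uncalled Srebp2-driven genes with a window. Acat2 was the exception without one. Counted by window, the CACGTG box was found in 7 of the 32 windows of the 25 genes, belonging to 6 genes (7.15% of all windows). The Lxr element, AGGTCA repeated directly after 4 free bases, was in 0 of the 32 (0.0152% of all windows).

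In the first stretch of the pathway, from acetyl-CoA to the prenyl diphosphates, 6 of 8 genes were called lower and 0 higher. Their median log2 ratio was −1.60, and 6.88% of all measured genes were called lower. Hmgcs1, the cytosolic HMG-CoA synthase, had levels of 9.51 and 9.56 in KO, against 11.97 and 11.96 in WT. That gap was the widest of the 30 genes, 5.40-fold lower in KO (log2 ratio −2.43 ± 0.04). The file places its probe on the unplaced piece 13_random of mm9, positions 114793 to 114852.

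The kinases that phosphorylate mevalonate followed. Mvk, mevalonate kinase (probe at chromosome 5, 114910540 to 114910599), had levels of 9.50 and 9.61 in KO, against 11.08 and 10.96 in WT, a log2 ratio of −1.47 ± 0.16. For Pmvk, phosphomevalonate kinase (chromosome 3, 89272867 to 89272926), they were 10.40 and 9.98 in KO, against 12.07 and 12.06 in WT, a log2 ratio of −1.88 ± 0.29. The KO levels of Pmvk differed more between arrays than its WT levels, and both lay below WT by more than 2-fold.

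Mvd, the decarboxylase that makes isopentenyl diphosphate (chromosome 8, 124957750 to 124957809), had levels of 8.47 and 8.22 in KO, against 9.81 and 9.83 in WT, a log2 ratio of −1.48 ± 0.20. Idi1, which interconverts the isoprenoid units (chromosome 13, 8891524 to 8891583), read 9.13 and 9.20 in KO, against 10.90 and 10.88 in WT, a log2 ratio of −1.72 ± 0.06. Fdps, farnesyl diphosphate synthase (chromosome 3, 88897549 to 88897608), read 10.88 and 10.72 in KO, against 12.82 and 12.66 in WT. Fdps had the closest agreement between arrays of the 30 genes, with a log2 ratio of −1.94 ± 0.0043.

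The genes at either end of this stretch stood apart from the 6. Acat2, the cytosolic thiolase that makes acetoacetyl-CoA, had log2 ratios of −0.45 and −0.68. Ggps1, which extends farnesyl diphosphate to geranylgeranyl diphosphate for protein prenylation and so leads away from sterols, had 0.21 and 0.16, and its sign turned to −0.31 under median centring. Neither was called.

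From squalene to cholesterol, 4 of 11 genes were called lower and 0 higher, where 6.88% of all measured genes were called lower. The median log2 ratio of the 11 was −0.93. Sqle, squalene epoxidase, which adds oxygen to squalene and can limit the rate of the sterol branch (chromosome 15, 59162688 to 59162747), had levels of 9.73 and 9.93 in KO, against 11.82 and 11.81 in WT. It was 3.95-fold lower in KO (log2 ratio −1.98 ± 0.15). Cyp51, lanosterol demethylase (chromosome 5, 4081471 to 4081530), read 7.16 and 7.22 in KO, against 8.58 and 8.78 in WT, a log2 ratio of −1.49 ± 0.10. Both genes had every KO reading at least 2-fold under the WT reading on the same array.

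Tm7sf2, a sterol reductase (chromosome 19, 6062882 to 6062941), had levels of 8.13 and 8.36 in KO, against 9.39 and 9.67 in WT, a log2 ratio of −1.28 ± 0.04. Sc4mol (Msmo1), the methylsterol monooxygenase (chromosome 8, 67196982 to 67197041), read 10.32 and 10.29 in KO, against 12.17 and 12.04 in WT, a log2 ratio of −1.80 ± 0.06. Tm7sf2 lost its call when all its probes were averaged (log2 ratio −0.97), under which rule 6.41% of all genes were called lower.

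The other 7 genes of the squalene and sterol stretch were not called, and 6 of them were below 0 on both arrays. Fdft1, squalene synthase, the first step committed to sterol, stood at the edge of the rule with log2 ratios of −0.96 and −1.13. Hsd17b7, which with Nsdhl completes removal of methyl groups from the sterol ring, was just outside at −0.996 and −0.81. Dhcr7, the reductase that makes cholesterol from its last precursor in one branch, had −0.92 and −0.94. These values were close to 2-fold and close to each other, and all 3 were called lower under any of 3 other settings: an offset of 1 (9.4% of all genes lower), the scanner software's processed signals (10.9% lower) and a 1.5-fold rule (13.5% lower). Taken alone, the array with KO in Cy3 called Fdft1 too (7.97% of all genes lower).

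Smaller differences were found in Nsdhl (−0.56 and −0.81), in Sc5d, a sterol desaturase (−0.51 and −0.56), and in Lss, which closes the rings of lanosterol (−0.34 and −0.69). Ebp, a sterol isomerase, was the one gene of the stretch whose arrays disagreed in sign, at 0.19 and −0.39.

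Levels in the plot of KO against WT lie along a band below the diagonal for most enzymes, bright and dim alike. The drop was larger among the brighter probes. Of the 11 brighter Srebp2-driven genes 7 were called lower, with a median log2 ratio of −1.72, and of the 11 dimmer ones 5 were, with a median of −0.93. With an offset of 1 in place of 50, the number called among the 22 was 16, where 9.4% of all genes were called lower. Of the added genes, Fdft1 was among the brighter 11, and Hsd17b7, Dhcr7 and Insig1 were among the dimmer 11. The part of the offset in the difference between brighter and dimmer genes was not tested.

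**Figure D2:**
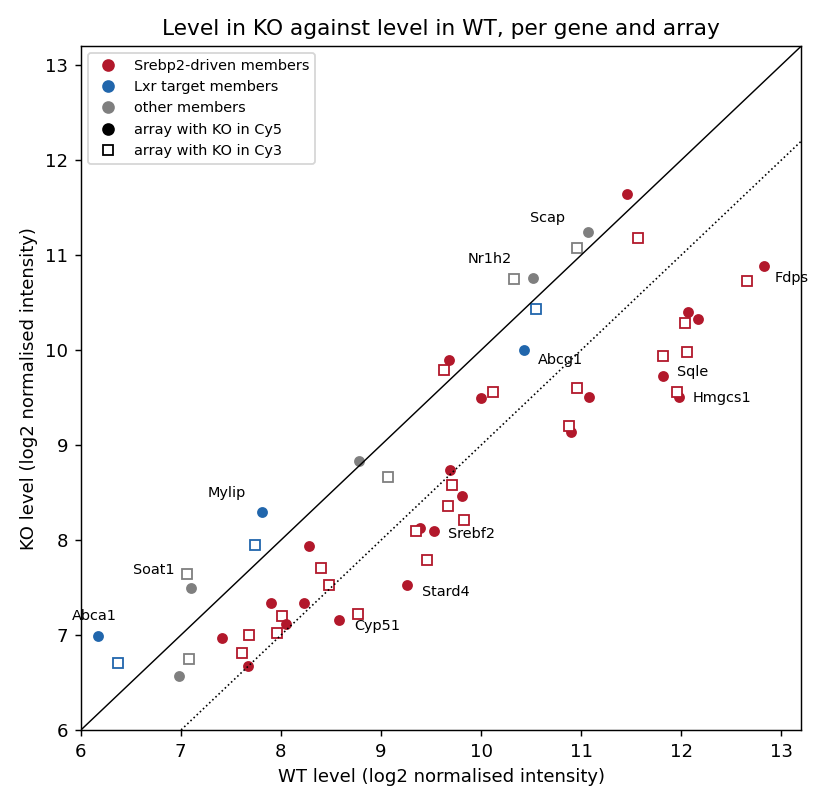
Level in KO (vertical axis) against level in WT (horizontal axis), both as log2 normalised intensity, for the 30 genes on each array. The solid line marks equal levels and the dotted line a 2-fold lower level in KO. Fdps, Hmgcs1 and Sqle lie far below the dotted line, and Mylip and Soat1 lie above the solid line.

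Among the regulators of SREBP2, the gene of the factor itself was lower and that of its escort was not. Srebf2 (chromosome 15, 82034765 to 82034824) had levels of 8.10 and 8.10 in KO, against 9.53 and 9.35 in WT, a log2 ratio of −1.34 ± 0.12. A second probe of Srebf2 gave −0.55 and −0.83, and the mean over both probes (−1.01) was not called. Scap, the escort, had levels of 11.24 and 11.08 in KO, against 11.07 and 10.96 in WT, a log2 ratio of 0.14 ± 0.03 that turned to −0.43 under median centring.

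The retention proteins INSIG1 and INSIG2 differ in that Insig1 is itself a target of SREBP2. Insig1 had levels of 7.33 and 7.53 in KO, against 8.24 and 8.48 in WT, a log2 ratio of −0.93 ± 0.03, short of the 2-fold rule on both arrays. Insig2 had levels of 8.83 and 8.66 in KO, against 8.78 and 9.07 in WT, and its log2 ratio of −0.18 ± 0.32 was smaller than its technical SD. Of these 4 regulators, Srebf2 alone was called.

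Stard4, a carrier that moves cholesterol between membranes in the cytosol and is a target of SREBP2 (chromosome 18, 33361181 to 33361240), had levels of 7.53 and 7.79 in KO, against 9.26 and 9.46 in WT. It was 3.26-fold lower in KO (log2 ratio −1.71 ± 0.05), within the range of the called enzymes. Its second probe lay at −0.86 and −0.72.

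Other probes of the same genes pointed the same way as the probe used. A further probe was present for 12 of the 30 genes, and 10 of these 12 probes were above background. All 10 had the same sign as the probe used, and 8 of the 10 were closer to 0.

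The LXR side showed no called gene. Nr1h2, which encodes LXRβ, had levels of 10.76 and 10.75 in KO, against 10.52 and 10.33 in WT. Its log2 ratio was 0.33 ± 0.13, and −0.22 ± 0.90 under median centring. Nr1h3, which encodes LXRα, had levels of 6.57 and 6.75 in KO, against 6.98 and 7.08 in WT, a log2 ratio of −0.37 ± 0.05, with a KO signal clear of background on 1 array only. With the software's processed signals Nr1h3 lay at −1.03, and under median centring at −0.47. Neither receptor gene was called. Their signs differed as reported. Under median centring both were negative, but there the median of all measured genes was itself −0.37.

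Abca1, which exports cholesterol to apolipoprotein A-I, had levels of 6.99 and 6.71 in KO, against 6.17 and 6.38 in WT. Its probe was not well above background in WT on either array, so only a bound can be given, at least 1.44-fold higher in KO. That bound is a mean over the arrays and need not hold on each of them. Abca1 was called higher with the software's processed signals, where 5.83% of all genes were. Abcg1, which exports cholesterol to high-density lipoprotein, had levels of 10.003 and 10.43 in KO, against 10.43 and 10.55 in WT, a log2 ratio of −0.27 ± 0.21. Its KO readings differed more between arrays than KO and WT did on average.

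Mylip (IDOL), the LXR target that marks lipoprotein receptors for degradation, had levels of 8.30 and 7.95 in KO, against 7.81 and 7.74 in WT, a log2 ratio of 0.35 ± 0.20. Soat1, which esterifies cholesterol for storage, had log2 ratios of 0.39 and 0.58. Mylip and Soat1 were above 0 on both arrays and neither reached 2-fold.

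Set side by side, the Srebp2-driven genes had a median well below 0, and the Lxr targets measured in both RNAs had one near 0. The 22 Srebp2-driven genes had a median log2 ratio of −1.31 (−1.30 and −1.28 on the arrays), with all 12 of the called genes among them and 20 of 22 below 0 on both arrays. Abcg1 and Mylip, the Lxr targets above background in both RNAs, had a median of 0.037, and the difference of medians was −1.35. With Abca1, which passed the background filter through KO alone, the 3 Lxr targets had a median of 0.35 (0.49 and 0.21) and the difference was −1.66 ± 0.21 (−1.78 and −1.49). None of the 3 was called. On the mean of the arrays, 20 of the 22 Srebp2-driven genes lay below the lowest Lxr target, Abcg1 at −0.27 ± 0.21. The exceptions were Ggps1 and Ebp. On the array with KO in Cy5, where Abcg1 was −0.42, Lss (−0.34) was not below it either. The share of all measured genes below Abcg1 is not given here, so the count has no background to be read against.

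**Figure D3:**
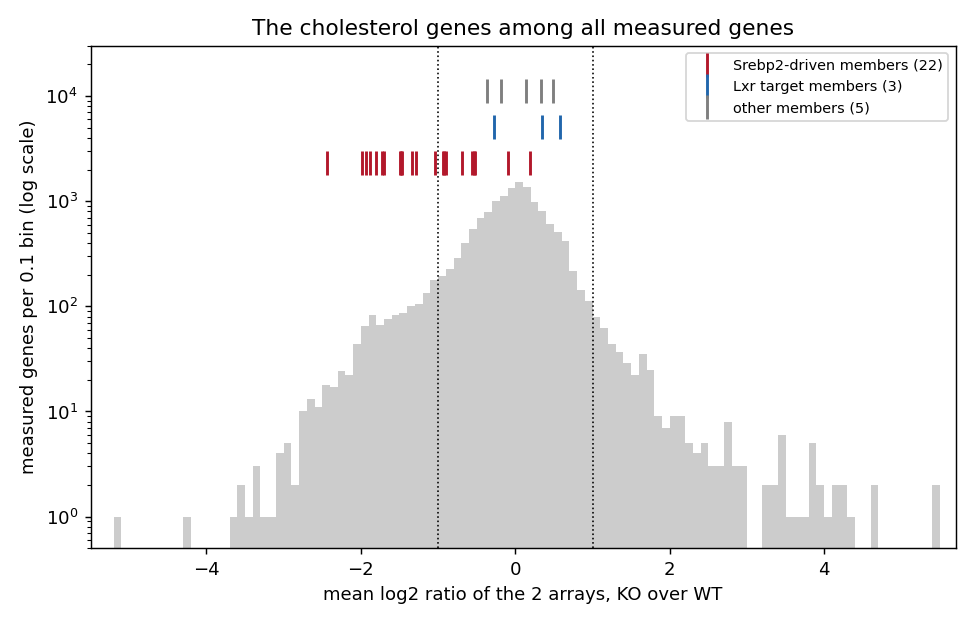
Distribution of the mean log2 ratio of KO over WT over the 14874 measured genes (grey, number per bin on a log scale), with ticks for the 22 Srebp2-driven genes, the 3 Lxr targets and the 5 other genes. Dotted lines mark 2-fold. The Srebp2-driven ticks spread from −2.43 to 0.19 and the Lxr targets Abcg1 and Mylip lie at −0.27 and 0.35. The tick of Abca1 rests on a WT signal not above background.

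The difference between the sets stayed between −2.09 and −1.35 over the alternative settings. Median centring in place of loess moved the median of all measured genes to −0.37, the Srebp2-driven median to −1.73 and the Lxr target median to 0.075. Relative to all measured genes these set medians were then −1.36 and 0.45. The Lxr median rests on 3 probes at most.

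**Figure D4:**
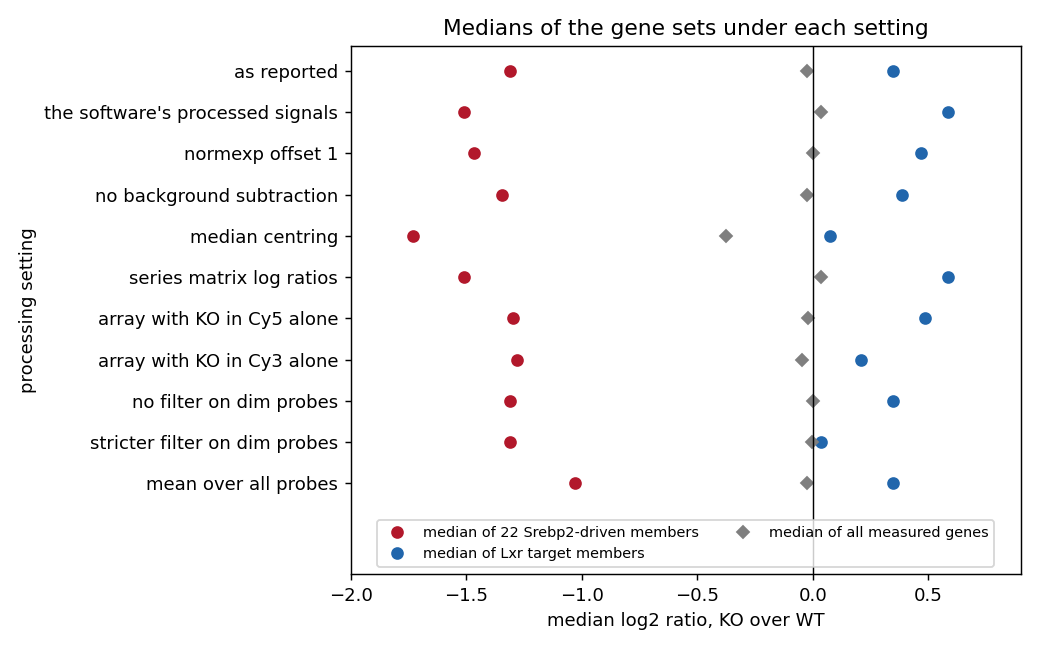
Median log2 ratio of KO over WT for the Srebp2-driven genes (red), the Lxr targets (blue) and all measured genes (grey diamonds), as reported in the first row and under each other setting below it. The Srebp2-driven median stays between −1.73 and −1.03 and the Lxr median between 0.037 and 0.59.

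Genes of the same pathway outside the 30 were read from lists. No receptor for lipoprotein uptake is among the 30 genes. Of 11 measured further genes of synthesis, activation and uptake, 4 were called lower and 0 higher, with a median log2 ratio of −0.61. Of all measured genes, 6.88% were called lower. The receptors Vldlr (−1.54 ± 0.32) and Scarb1 (−1.65 ± 0.05) were called, as were the sterol reductase gene Lbr (−1.68 ± 0.03) and Tmem97 (−1.97 ± 0.14), a sterol-binding membrane protein. These 4 were lower by amounts within the range of the called genes above.

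Further branches of sterol handling had medians near that of all measured genes, of which 6.88% were called lower and 2.46% higher. Of 17 measured genes of sterol sensing, lysosomal export and trafficking, 2 were called lower and 0 higher (median −0.06): Soat2, which esterifies cholesterol, at −1.86 ± 0.02, and Erlin1, which takes part in sterol-regulated degradation in the endoplasmic reticulum, at −1.33 ± 0.02. The paralogues Soat1 and Soat2 therefore differed in sign. Of 12 genes of the nonsterol isoprenoid branch, to which Ggps1 leads, 0 were called (median −0.06), and of 8 measured further LXR targets and partners 0 were called (median −0.09). That list mixes targets with partners and corepressors, and its highest ratios on the arrays were those of the Lxr target Apoe, a lipid carrier (1.06 and 0.74). Of the 8, 4 lay below 0 on both arrays and 3 above 0. Only 2 of 6 oxysterol enzymes were measured, with 0 called.

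The share of called genes differed between neighbouring programmes, where 6.88% of all measured genes were called lower and 2.46% higher. Of 14 measured genes of SREBP1-driven fatty acid synthesis, 3 were called lower and 0 higher (median −0.55): the desaturase gene Scd2 at −4.27, Mid1ip1 at −2.62 and the elongase gene Elovl6 at −1.61. Of 17 measured proliferation genes, 15 were called lower and 0 higher (median −2.10). The part of proliferation in the sterol result was not tested.

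Some markers of other cells were higher in the KO extract. Of 14 macrophage and myeloid markers 7 were measured, with 4 called higher (Fcer1g, Tyrobp, S100a8 and S100a9), where 2.46% of all measured genes were. Tyrobp, S100a8, S100a9 and Lyz2 passed the background filter through KO alone, which favours higher values among them. Adgre1, Cd68, Cd14, Fcgr1, Mertk, Marco and Cd163 were not well above background in either RNA. Csf1r (0.51 and 0.30) and Itgam (0.75 and 0.65) were measured in both RNAs, lay above 0 on both arrays and were not called. The summed linear level of the measured 7 was 15011 and 13479 in KO, against 6226 and 5910 in WT, with most of each sum from Itgam. Its log2 levels were 13.18 and 13.01 in KO, against 12.43 and 12.37 in WT. The sums therefore largely follow 1 probe and do not measure the number of myeloid cells. Of 7 measured CD8 T and NK cell markers, 3 were called higher (Klrc1, Klrd1 and Klrb1c, all lectin receptors). Klrb1c too passed the filter through KO alone. The summed level of the 7 was 2361 and 2236 in KO, against 1119 and 1087 in WT. Cd8a had a log2 ratio of 0.67 and Cd8b1 one of −0.55, and neither was called. Of the B cell markers 1 of 6 and of the dendritic cell markers 2 of 7 were measured, with 0 called higher and 1, the dendritic cell marker H2-Ab1, called lower (−1.85 and −1.95). The other dendritic cell marker measured, Siglech, went the other way (0.83 and 0.81). It was bright in both RNAs, with log2 levels of 14.49 and 14.55 in KO, against 13.66 and 13.74 in WT. The B cell marker Cd79b was also above 0 on both arrays (0.58 and 0.65). The part of other cells in the ratios of the 30 genes was not tested.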

How the data were processed

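The deposited scanner tables give, per the file headers, uncorrected mean and background intensity of every spot and channel from Agilent Feature Extraction 10.7.3.1 (10.5.1.1 in the submitters' processing notes). The deposited series matrix holds log10 ratios equal to the scanner software's own. Each array had 44397 spots, 1377 of them controls. In KO, 51.7% and 43.7% of other spots were well above background, against 48.4% and 48.8% in WT. Both arrays lay on 1 slide.

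Intensities were corrected with normexp (offset 50) and normalised by loess within each array in limma 3.58.1 (R 4.3.3). Control spots had weight 0, and 206 and 214 outlier spots were left out. Spots of a probe were averaged, ratios turned to KO over WT by the labelled dyes, and the arrays averaged. Levels per channel were Aquantile-normalised. For a probe not above background in an RNA, the bound takes the higher of its own signal and the lowest signal among probes above background there. Bounds were averaged over the arrays. Probes were named by accession (26055), symbol (3195) or synonym (930) through RefSeq (GRCm38.p6), or kept the file's name (9249). Positions of probes are those of the files (mm9), and exon or UTR annotation and cross-hybridisation were not analysed here.

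With 1 extract per genotype no p-value is given. The members and lists were chosen with earlier results of these data known. Values were named for all 30 genes, for Lamtor1 and for called genes of the other pathway lists. Apoe, which was not called, and a few markers were singled out after their values were seen. Some genes of the pathway are not reported here and were left out of the list counts. The alternatives (11) were the software's processed signals, offset 1, no background subtraction, median centring, the series matrix, each array alone, no or a stricter filter on dim probes, the mean over all probes, and a 1.5-fold rule. The steps were checked on simulated arrays with known changes.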

Additional observations from a re-analysis of the deposited data

How the results depend on the processing

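The 12 genes called lower were called under 10 of the 11 alternatives, and the mean over all probes left 10, without Tm7sf2 and Srebf2. Each array alone, the 1.5-fold rule and no filter on dim probes are looser than the reported rule and could not drop a call. The series matrix repeats the processed signals. With the processed signals, the series matrix, offset 1 or a 1.5-fold rule 16 were lower, adding Fdft1, Hsd17b7, Dhcr7 and Insig1, and the array with KO in Cy3 alone added Fdft1 (13). Called higher was 1 gene, Abca1, with the processed signals and the series matrix, under which 10.9% and 5.83% of all genes were called lower and higher. Across all genes the processed signals gave 1614 lower and 867 higher, median centring 881 and 111, and the 1.5-fold rule 2008 and 1009, against 1024 and 366 as reported.

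The Srebp2-driven median was −1.51 with the processed signals or the series matrix, −1.46 with offset 1, −1.35 without background subtraction, −1.73 with median centring, −1.03 with the mean over probes, and −1.30 (KO in Cy5 alone) and −1.28 (KO in Cy3 alone). The Lxr median was 0.59 with the processed signals or the series matrix, 0.075 with median centring and 0.037 with the stricter filter, which left out Abca1 and Nr1h3. The difference of medians was −2.09, −1.93 (offset 1), −1.35 (stricter filter) and −1.38 (mean over probes). Lamtor1 lay at −2.18 with the processed signals or the series matrix, −2.17 with offset 1, −2.02 without background subtraction and −2.39 with median centring. The cause of these shifts was not tested.

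Of the 30 genes, 25 kept their sign under every alternative that gave a value, and Ggps1, Ebp, Insig2, Scap and Nr1h2 did not under 1 each. No paired analysis was possible because KO and WT had a single extract each. Signals near background limit Abca1, Nr1h3 and the dim enzymes.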
